A study of Rattus norvegicus with 12 samples.

Results

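Secreted Wnt antagonists and the Wnt receptor Fzd9 were examined in RNA of tissue from a distal femur defect of the rat. The 9 genes were Sfrp1, Sfrp2, Sfrp5, Frzb, Dkk1, Dkk3, Wif1, Notum and Fzd9, taken by name from a table of 22601 genes, and 8 of them were among the 12633 genes tested. Sprague Dawley rats aged 8 weeks received a drilled defect of the lateral femoral condyle, and the tissue was taken 2 weeks after surgery. Each of 4 groups held 3 libraries: a hydrogel scaffold of gelatin methacryloyl (GelMA), a scaffold of polycaprolactone (PCL, a slowly degrading polyester), a scaffold of β-tricalcium phosphate (β-TCP, a resorbable ceramic), and the control group, in which the same defect was left without a scaffold. Tissue from a control defect and tissue inside a scaffold are not the same sampled material, and the amount of new tissue was not matched between groups. The study's methods speak of independent samples in each group but do not tie each library to a rat, so p-values cover the spread between these libraries.

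Wnt proteins are secreted, lipid-modified ligands. They bind Frizzled receptors and LRP co-receptors on the receiving cell, which keeps β-catenin from being degraded, so that it enters the nucleus and acts with TCF/LEF factors on target genes. The pathway drives bone formation by osteoblasts, whereas cartilage formation requires it to be held low, and several antagonists are made by chondrocytes. The antagonists act at different steps. Secreted Frizzled-related proteins (Sfrp1, Sfrp2, Sfrp5 and Frzb, which is also called sFRP3) and Wif1 bind the Wnt ligand outside the cell. Dkk1 blocks the LRP co-receptor, and Dkk3 is a divergent Dickkopf relative whose action on Wnt varies with the setting. Notum is an enzyme that removes the lipid from Wnt proteins. Fzd9 is a Frizzled receptor, and mice without it have weak bone formation.

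Levels were given by the authors as FPKM, fragment counts corrected for transcript length and for sequencing depth. The steps of the FPKM gave whole fragments, within 0.01 of a whole number, for 18682 of the 18684 genes above 0, and from them the libraries held 14062522 to 16347610 fragments over the genes of the table. A gene was called where limma on log2(FPKM + 1) gave an unadjusted p under 0.05 and the fitted fold change was over 2 or under 0.5, which is the threshold in the study's methods. Calls at a Benjamini-Hochberg adjusted p under 0.05 over all genes tested are given beside them. Fitted fold changes are on the log2(FPKM + 1) scale and understate the change of low genes. The 3 comparisons with the control group share its 3 libraries. Where the 3 libraries of a group lay wholly above or below 3 others, the share of all genes doing so was not counted. A two-sided exact permutation p for 3 against 3 libraries is 0.1 at the smallest.

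Some libraries stood apart. Control replicate 3 had a summed FPKM of 14648 over 16 cartilage markers, against 2697 and 2500 in control replicates 1 and 2, and the least hemoglobin RNA of the 12 libraries (0.953% of all FPKM, against 3.02% to 23.3% in the other 11). β-TCP replicates 2 and 3 were close to each other, with a median chi-square over genes of 0.719, against 2.62 to 27.6 in the 11 other pairs of replicates and 0.455 for counting noise alone. Bone RNA was present in every library, since Col1a1, the main collagen of bone, lay between 3635 and 11860 FPKM. The skeletal muscle list summed to 14.97 to 528 FPKM in the 9 scaffold libraries and to 20.6 to 34.8 FPKM in the 3 control libraries.

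Sfrp1, Dkk1, Dkk3 and Notum had no start-site window under their gene identifiers. Windows of Sfrp2 and Wif1 were found but are not printed. The start-site sequences of Sfrp5, Frzb and Fzd9 are shown. They are the RefSeq windows of build GRCr8 from 250 bases before to 50 bases after the annotated start, written 5′ to 3′ on the gene's own strand. The files were made on another build (Rnor_6.0), and no peak or binding was measured there. Capitals mark matches on either strand to the TCF/LEF word CTTTGAA or its variants, the word CTTTGAT, the word CTTTGTA and the word CTTTGTT, to the RUNX word TGTGGT and to the SOX word ACAAAG or its variant, the word ACAATG.
Sfrp5, chr1:250960463-250960762, minus strand: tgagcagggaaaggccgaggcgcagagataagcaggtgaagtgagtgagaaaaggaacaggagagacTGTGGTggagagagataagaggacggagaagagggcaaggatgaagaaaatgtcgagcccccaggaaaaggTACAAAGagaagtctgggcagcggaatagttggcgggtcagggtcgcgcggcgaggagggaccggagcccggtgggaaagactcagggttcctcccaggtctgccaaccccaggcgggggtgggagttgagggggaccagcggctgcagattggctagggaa
Frzb, chr3:85772047-85772346, minus strand: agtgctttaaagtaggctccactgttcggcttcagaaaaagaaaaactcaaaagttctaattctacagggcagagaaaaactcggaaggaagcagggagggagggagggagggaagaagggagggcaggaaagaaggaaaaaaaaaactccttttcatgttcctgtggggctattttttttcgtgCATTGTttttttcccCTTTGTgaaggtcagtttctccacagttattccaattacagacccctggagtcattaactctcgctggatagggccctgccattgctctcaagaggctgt
Fzd9, chr12:27063390-27063689, plus strand: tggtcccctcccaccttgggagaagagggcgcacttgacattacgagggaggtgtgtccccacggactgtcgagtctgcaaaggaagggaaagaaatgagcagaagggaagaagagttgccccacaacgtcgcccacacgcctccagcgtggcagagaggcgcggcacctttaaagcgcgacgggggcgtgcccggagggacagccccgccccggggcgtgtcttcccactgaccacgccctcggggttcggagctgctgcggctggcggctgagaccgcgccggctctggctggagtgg

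The Sfrp5 window held TGTGGT 183 bases before the start and TACAAAG 112 bases before it, where a TCF/LEF word read on the opposite strand (CTTTGTA) and the SOX word ACAAAG overlap. The Frzb window held both SOX words on the opposite strand, read here as CATTGT 65 bases and CTTTGT 50 bases before the start. The Fzd9 window held none of the words and was richer in G and C (66.7%, against 45.3% for Frzb and 59.7% for Sfrp5, with a median of 51.7% over all promoters). Windows with such letters are common: of 33469 rat promoters of the same length, 17.1% held a TCF/LEF word, 17.3% the RUNX word and 29.1% a SOX word. Windows under the same gene identifier were found for 5 of the 9 genes, and those of Sfrp2 and Wif1 held no match.

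Over all 12 libraries the mean level was highest for Wif1 (29.3 FPKM), Sfrp1 (25.9 FPKM) and Dkk3 (23.1 FPKM). Frzb averaged 11.04 FPKM, Sfrp2 8.78 FPKM, Sfrp5 4.32 FPKM and Fzd9 2.92 FPKM. Notum, at 0.672 FPKM, and Dkk1, at 0.355 FPKM, were the lowest. The spread between libraries ran in another order. The highest library exceeded the lowest by 206-fold for Sfrp5, 76.6-fold for Frzb, 14.3-fold for Fzd9 and 11.7-fold for Notum, but by 2.18-fold for Wif1.

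**Figure D1:**
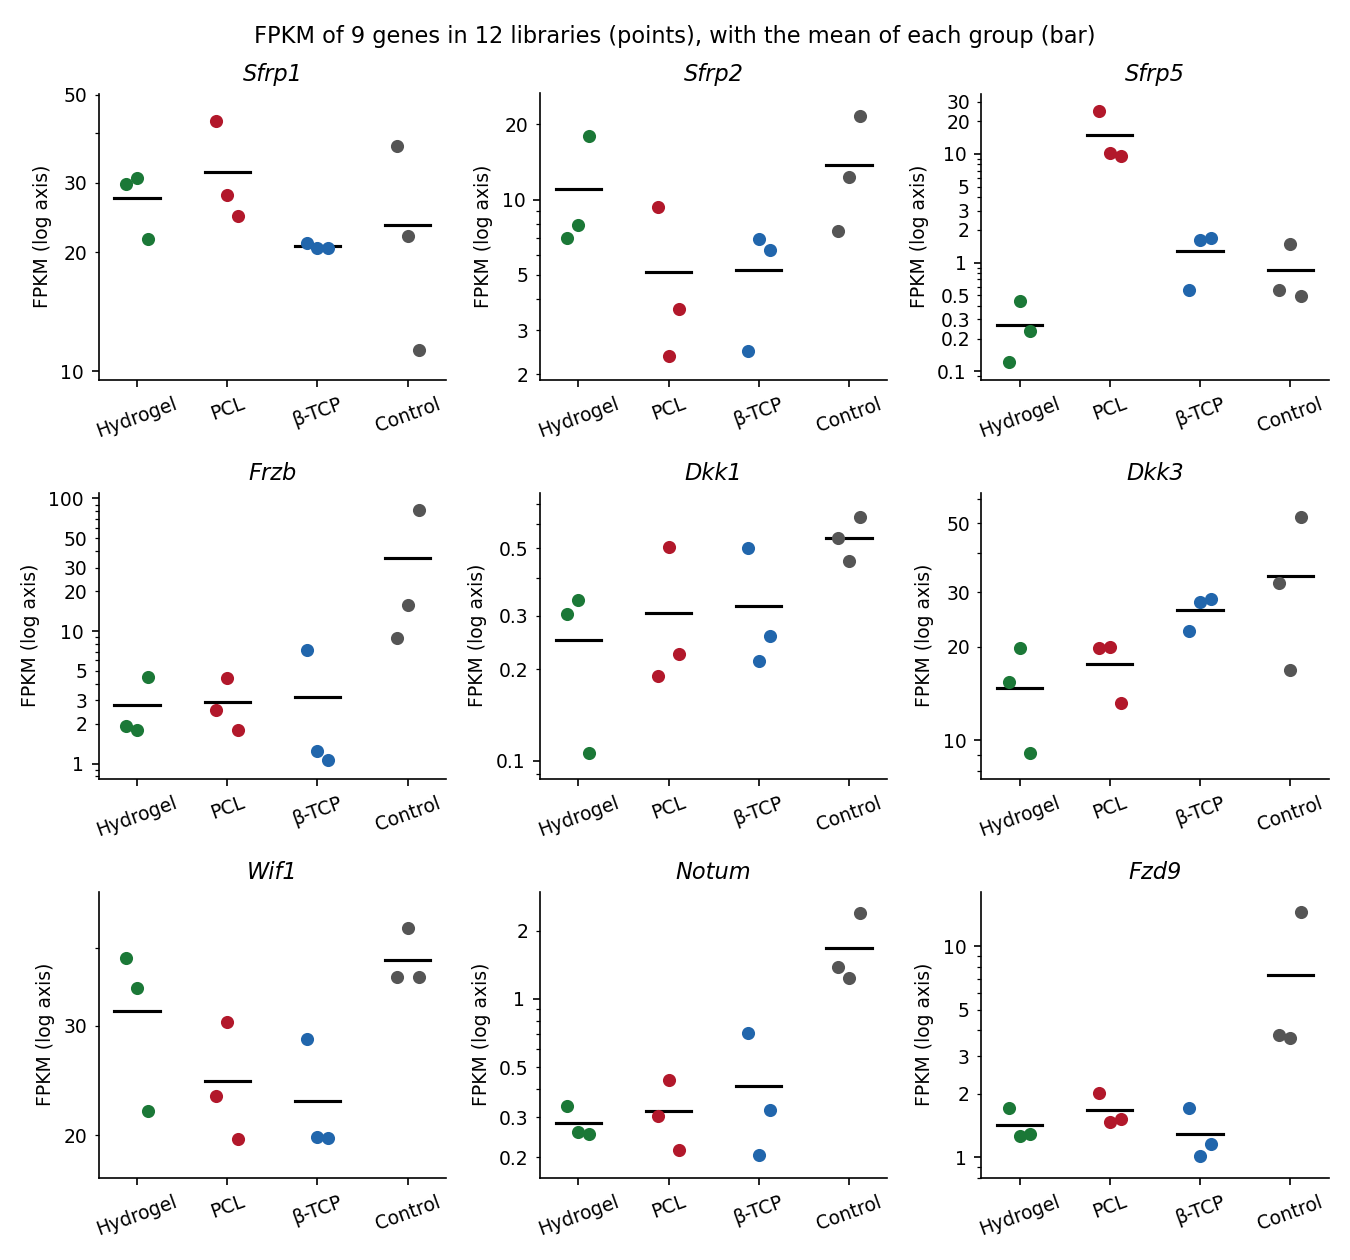
FPKM of each of the 9 genes on a log axis, by group, with 1 point per library and a bar at the group mean (n = 3). Frzb, Notum and Fzd9 lie lower in each of the 9 scaffold libraries than in each of the 3 control libraries, and Sfrp5 is high in the 3 PCL libraries (9.45 to 24.9 FPKM).

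In the hydrogel group, none of the 8 genes tested was called higher and 4 were called lower than in the control group, Frzb, Dkk3, Notum and Fzd9. Of all genes tested, 1.48% were called lower and 0.807% higher in that comparison. In the PCL group Sfrp5 was higher and Sfrp2, Frzb and Fzd9 were lower, where 2.37% of all genes were called higher and 1.27% lower. In the β-TCP group none was called higher and Sfrp2, Frzb and Fzd9 were lower, where 2.49% of all genes were called higher and 1.03% lower. At an adjusted p under 0.05, limma called none in hydrogel (0.00792% of all genes), Sfrp5 in PCL (0.277%) and Notum and Fzd9 in β-TCP (4.78%). Notum passed the filter on low values through the 3 control libraries alone, so its place among the genes tested was set by the group in which it was high.

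Of the 9 genes, Sfrp5 was the one that set the PCL group apart. In the PCL group it had 24.9, 10.3 and 9.45 FPKM (829, 354 and 312 fragments). The hydrogel libraries had 0.121, 0.447 and 0.234 FPKM and the β-TCP libraries 0.562, 1.61 and 1.67 FPKM, against 0.560, 1.49 and 0.493 FPKM (17, 45 and 16 fragments) in the control group. All 3 PCL libraries were above every other library, a separation whose share over all genes was not counted.

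The mean of Sfrp5 was 14.9 ± 8.72 FPKM in PCL and 0.848 ± 0.557 FPKM in control (SD, n = 3 each), a ratio of 17.5. The fitted log2 fold change was 3.01 with a standard error of 0.35 (limma, adjusted p = 0.0126), the fifth smallest p among all genes tested. PCL also differed from hydrogel, by 3.52 (SE 0.35, adjusted p = 0.00718 by limma), where Sfrp5 was the 1 of 8 genes called. Of all genes, 0.546% were called higher and 0.222% lower in that comparison, and 0.103% passed the adjusted threshold. Against β-TCP the difference was 2.71 (SE 0.35, adjusted p = 0.0159 by limma), where Sfrp5 was again the 1 gene called. There, 3.34% of all genes were called higher and 1.14% lower, and 0.657% passed the adjusted threshold.

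Hydrogel and control did not differ in Sfrp5 beyond their spread, although the hydrogel libraries were all below the control libraries (difference −0.51, 95% interval −1.30 to 0.27, adjusted p = 0.364 by limma). The control mean was 3.17 times the hydrogel mean, but the added 1 FPKM weighs heavily at levels this low. Between β-TCP and control the difference was 0.30 (95% interval −0.48 to 1.09, adjusted p = 0.749 by limma). Between β-TCP and hydrogel it was 0.82 (SE 0.35, adjusted p = 0.136 by limma), which is under 2-fold on this scale. The means were 1.28 FPKM in β-TCP and 0.267 FPKM in hydrogel, so the added 1 FPKM weighs heavily here too. Under the alternatives this difference ran from 0.68 to 2.22, and 4 of 23 passed the threshold for a call. Of these 23, 2 gave an adjusted p under 0.05 by limma. The adjusted p of Sfrp5 in PCL against control was 0.0530 without PCL replicate 2. In PCL against hydrogel it was 0.0544 without hydrogel replicate 1 and 0.0652 without hydrogel replicate 3. In PCL against β-TCP it was 0.0558 without PCL replicate 3, 0.0834 without β-TCP replicate 2 and 0.0972 without β-TCP replicate 3.

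Sfrp5 is also known from fat tissue, where it is secreted and opposes Wnt5a, so the fat markers stand beside it. Of 6 adipocyte genes tested, Fabp4, a fatty acid carrier, and Lpl, a lipase, were called higher in PCL and in β-TCP than in control, and none was called lower. The share of all genes called higher was 2.37% in PCL and 2.49% in β-TCP. At an adjusted p under 0.05 limma called both genes in PCL (0.277% of all genes) and Lpl in β-TCP (4.78%). Lpl had 340, 217 and 168 FPKM in PCL and 88.6, 139 and 134 FPKM in β-TCP, against 49.0, 39.0 and 18.8 FPKM in control. Its fitted log2 fold change was 2.77 in PCL (SE 0.36, adjusted p = 0.0149 by limma) and 1.81 in β-TCP (SE 0.36, adjusted p = 0.0251 by limma). Fabp4 and Lpl are also expressed by macrophages. Adipoq, the defining adipocyte hormone, had 13.6, 1.05 and 0.972 FPKM in PCL, against 13.0, 15.5 and 0.701 FPKM in control. Plin1, which coats fat droplets, had 4.21, 0.347 and 0.558 FPKM in PCL and 5.40, 5.15 and 0.341 FPKM in control. Both Adipoq and Plin1 overlapped between the groups. The median log2 fold change of the 6 genes was −0.14 in PCL, beside 0.04 over all genes. All 8 adipocyte genes listed summed to 820 to 1303 FPKM in PCL and 311 to 681 FPKM in β-TCP, against 92.4 to 243 FPKM in control, and most of the sum in PCL was Fabp4 (932, 694 and 643 FPKM) and Lpl. Whether fat tissue has a part in the higher Sfrp5 was not tested.

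The genes most like Sfrp5 over the 12 libraries, by Pearson's r of log2(FPKM + 1) among 12279 genes, were Cst6 (r = 0.95), a cysteine protease inhibitor, Ankrd34c (r = 0.94) and Serping1 (r = 0.94), the inhibitor of complement C1. Cst6 had 65.9, 38.0 and 21.1 FPKM in PCL, against 0.706, 1.1 and 0.588 FPKM in control. These values of r describe a pattern shared over the same libraries, in which PCL replicate 1 was the highest for Sfrp5 and for each of the 3 genes.

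Frzb, a Wnt-binding antagonist best known from the joint and growth plate cartilage, was lower in all scaffold groups. It had 1.91, 1.78 and 4.54 FPKM in hydrogel, 2.53, 4.46 and 1.78 FPKM in PCL and 7.24, 1.24 and 1.06 FPKM in β-TCP, against 8.92, 15.8 and 81.1 FPKM in control. All 9 scaffold libraries were below the lowest control library, and β-TCP replicate 1 came nearest to it. Lower in all 9 scaffold libraries than in all 3 control libraries were 1.52% of all genes tested.

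The mean of Frzb was 2.75 ± 1.55 FPKM in hydrogel, 2.92 ± 1.38 FPKM in PCL and 3.18 ± 3.52 FPKM in β-TCP, against 35.3 ± 39.8 FPKM in control (SD, n = 3 each), so that the control mean was 12.9, 12.1 and 11.1 times as high. The fitted log2 fold change was −2.75 in hydrogel (adjusted p = 0.312), −2.67 in PCL (adjusted p = 0.153) and −2.83 in β-TCP (adjusted p = 0.0580), each with a standard error of 0.75 by limma. None of these passed the adjusted threshold. The size rested in part on control replicate 3. Without it the fitted changes were −1.86, −1.78 and −1.94 in hydrogel, PCL and β-TCP, and the mean of the other control libraries was 4.51, 4.23 and 3.90 times as high. The scaffold groups did not differ from each other beyond their spread (differences of −0.08 to 0.17, SE 0.75), which leaves wide intervals, such as −1.49 to 1.82 for PCL against β-TCP.

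Fzd9 followed the same pattern at a lower level. It had 1.72, 1.26 and 1.29 FPKM in hydrogel, 2.02, 1.47 and 1.51 FPKM in PCL and 1.70, 1.01 and 1.15 FPKM in β-TCP, against 3.79, 3.67 and 14.4 FPKM in control. The 9 scaffold libraries lay within a narrow band below every control library. The mean was 1.42 ± 0.255 FPKM in hydrogel, 1.66 ± 0.305 FPKM in PCL and 1.29 ± 0.366 FPKM in β-TCP, against 7.30 ± 6.18 FPKM in control (SD, n = 3 each), so that the control mean was 5.13, 4.39 and 5.67 times as high.

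The fitted log2 fold change of Fzd9 was −1.54 in hydrogel (adjusted p = 0.312), −1.40 in PCL (adjusted p = 0.138) and −1.63 in β-TCP (adjusted p = 0.0397), each with a standard error of 0.38 by limma. Without control replicate 3 the changes were −0.97, −0.83 and −1.06, at adjusted p = 0.0942, adjusted p = 0.0587 and adjusted p = 0.0145 by limma, so that the smaller fold ended the calls in hydrogel and PCL. The adjusted call in β-TCP was also lost under 16 of the alternatives tried, with adjusted p up to 0.192, and when a single library was left out it ranged from 0.0145 without control replicate 3 to 0.169 without β-TCP replicate 2.

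Notum was low everywhere but in the control libraries. It had 0.338, 0.259 and 0.254 FPKM in hydrogel (22, 16 and 15 fragments), 0.305, 0.440 and 0.215 FPKM in PCL (20, 30 and 14 fragments) and 0.705, 0.204 and 0.324 FPKM in β-TCP (47, 13 and 21 fragments). The control libraries had 1.39, 1.24 and 2.39 FPKM (83, 74 and 153 fragments). No scaffold library reached the lowest control library. The control mean was 5.90, 5.23 and 4.07 times that of hydrogel, PCL and β-TCP, and 4.63, 4.11 and 3.20 times without control replicate 3.

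On the log2(FPKM + 1) scale, the change of Notum was −1.03 in hydrogel (adjusted p = 0.263), −0.997 in PCL (adjusted p = 0.0580) and −0.91 in β-TCP (adjusted p = 0.0250), each with a standard error of 0.18 by limma. The values in PCL and β-TCP fell short of 2-fold on this scale, where the added 1 FPKM outweighs the low levels. With limma-voom on the recovered fragments, which adds far less, they were −2.36 in PCL and −2.13 in β-TCP. The adjusted p in β-TCP was 0.126 without β-TCP replicate 2 and 0.123 without β-TCP replicate 3.

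Frzb, Fzd9 and Notum varied together, and they varied with cartilage genes. Over the 12 libraries Pearson's r of log2(FPKM + 1) was 0.93 between Frzb and Fzd9, 0.94 between Frzb and Notum and 0.94 between Fzd9 and Notum, given as a description of points that share control replicate 3 as the highest. The gene most like Fzd9 was Sox9 (r = 0.99), the master transcription factor of chondrocytes, followed by Wwp2 (r = 0.98), a ubiquitin ligase whose gene hosts a cartilage microRNA. The gene most like Frzb was Chad (r = 0.98), the cartilage matrix protein chondroadherin. The genes most like Notum were Moxd1 and Anxa8 (r = 0.97 each).

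All 14 cartilage genes tested, of 16 listed, were called lower in each scaffold group, with median log2 fold changes of −3.77 in hydrogel, −3.94 in PCL and −3.69 in β-TCP, beside medians of 0.14, 0.04 and 0.03 over all genes. The share of all genes called lower was 1.48%, 1.27% and 1.03% in the same order. At an adjusted p under 0.05 limma called none of the 14 in hydrogel or PCL and 8 in β-TCP. The share of all genes passing it was 0.00792%, 0.277% and 4.78% in the same order. The summed level of all 16 listed was 371 to 900 FPKM in hydrogel, 223 to 532 FPKM in PCL and 320 to 1151 FPKM in β-TCP, against 2500 to 14648 FPKM in control. Col2a1, the main cartilage collagen, was present in every library, at 26.3 to 526 FPKM in the 9 scaffold libraries and 1298 to 9071 FPKM in the control libraries. Whether the share of cartilage in the tissue has a part in the lower Frzb, Fzd9 and Notum was not tested. In bulk tissue, fewer cells of a type and less RNA per cell cannot be told apart.

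The 3 genes were also set against cartilage genes of the same library. Sox9 and Chad were the genes most like Fzd9 and Frzb over these same libraries. For these pairs, an overlap of the ratios was favored by that choice and is no test. Notum and Frzb varied with Fzd9 over the same libraries (r = 0.94 and 0.93), so their ratios to Sox9 are no test either. The FPKM of Fzd9 divided by that of Sox9 was 0.901 to 1.2 in hydrogel, 0.909 to 1.53 in PCL and 1.11 to 1.32 in β-TCP, and 0.930 to 1.2 in control, so that these ranges overlapped. The ratio of Notum to Sox9 was 0.177 to 0.235 in hydrogel, 0.189 to 0.273 in PCL and 0.267 to 0.460 in β-TCP, and 0.171 to 0.407 in control, again with overlap. The ratio of Frzb to Sox9 was 1.33 to 3.16 in hydrogel, 1.57 to 2.76 in PCL and 1.02 to 4.72 in β-TCP, and 2.19 to 5.79 in control, so that it overlapped too. For Frzb the outcome varied with the gene it was divided by. Its ratio to Chad was 0.521 to 1.24 in hydrogel and 0.479 to 1.68 in PCL, which overlapped the 0.510 to 0.626 in control, and 0.730 to 1.07 in β-TCP, which did not. Its ratio to Col2a1 was 0.0101 to 0.0546 in hydrogel, 0.0152 to 0.0676 in PCL and 0.0138 to 0.0265 in β-TCP, and 0.00687 to 0.0116 in control, so that the PCL and β-TCP libraries lay above the control libraries.

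**Figure D2:**
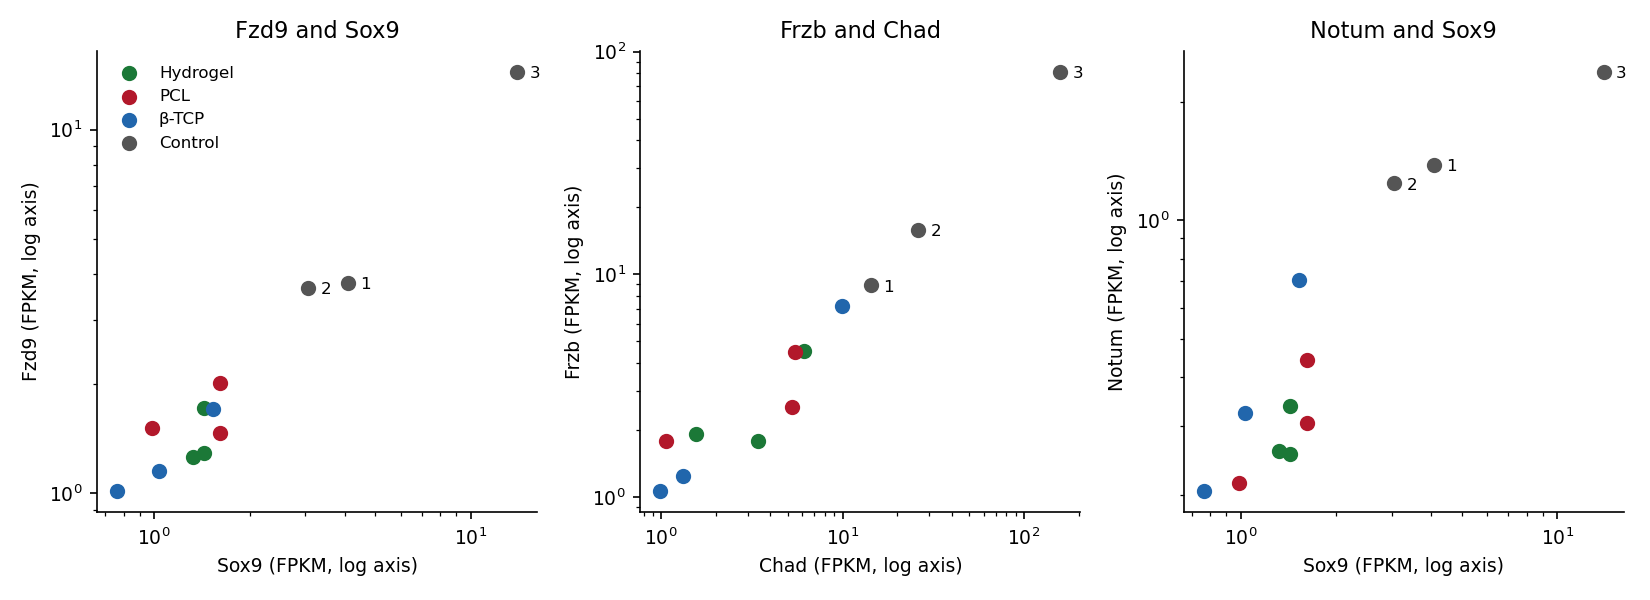
FPKM of Fzd9 against Sox9, Frzb against Chad and Notum against Sox9 in the 12 libraries, both axes logarithmic, with the 3 control libraries numbered by replicate. Control replicate 3 is the highest point of each panel, and the 9 scaffold libraries lie below and to the left of the controls.

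Sfrp2, a Wnt-binding antagonist made by fibroblasts and bone-forming cells, was called lower in PCL and β-TCP. It had 7.04, 7.90 and 18.0 FPKM in hydrogel, 9.35, 2.36 and 3.66 FPKM in PCL and 2.47, 6.98 and 6.27 FPKM in β-TCP, against 7.46, 12.3 and 21.6 FPKM in control. The β-TCP libraries were all below the control libraries, a separation whose share over all genes was not counted. PCL replicate 1 was above the lowest control library. The log2 fold change was −1.32 in PCL (SE 0.52, adjusted p = 0.237 by limma) and −1.22 in β-TCP (SE 0.52, adjusted p = 0.248 by limma). Between PCL and hydrogel it was −1.02 (SE 0.52, adjusted p = 0.620 by limma), which was not called. These calls rested on single libraries. In PCL the unadjusted p was no longer under 0.05 without control replicate 3 (log2 fold change −0.96), control replicate 2 (−1.34), PCL replicate 2 (−0.97) or PCL replicate 3 (−1.21). In β-TCP the same held without control replicate 3 (−0.85), control replicate 2 (−1.24), β-TCP replicate 1 (−0.84) or PCL replicate 3 (−1.22), which enters through the shared estimate of the spread.

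Sfrp1, an antagonist widely expressed in bone and stroma, was among the most abundant of the 9 and was called in no comparison. It had 29.8, 30.8 and 21.6 FPKM in hydrogel, 42.9, 27.9 and 24.7 FPKM in PCL and 21.1, 20.5 and 20.5 FPKM in β-TCP, against 37.2, 21.9 and 11.3 FPKM in control. The control libraries alone spanned most of the range of the others. The log2 differences from control were −0.03 to 0.53 (SE 0.35), and a change of 2-fold lay within the 95% interval for PCL (−0.24 to 1.30).

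Of the Dickkopf genes, Dkk3 was well expressed and Dkk1 was near the limit of detection. Dkk3 had 15.4, 19.8 and 9.12 FPKM in hydrogel, 19.9, 19.9 and 13.2 FPKM in PCL and 22.4, 27.95 and 28.6 FPKM in β-TCP, against 32.2, 16.9 and 52.3 FPKM in control. Each scaffold group overlapped the control group, in which replicate 2 was lower than all β-TCP libraries, 2 PCL libraries and 1 hydrogel library. The log2 fold change was −1.07 in hydrogel (SE 0.37, adjusted p = 0.312 by limma), and this call ended without control replicate 3 (−0.69) or without hydrogel replicate 3 (−0.78). In β-TCP against hydrogel the difference was 0.85 (SE 0.37, adjusted p = 0.138 by limma), under 2-fold, and none of the 8 genes was called in that comparison. Of all genes, 3.36% were called higher and 5.02% lower there, and 6.13% passed the adjusted threshold. The genes most like Dkk3 were C1qtnf1, Pofut2 (r = 0.99 each) and P3h3 (r = 0.98).

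Dkk1 had under 1 FPKM in every library and was not tested by limma. It had 0.303, 0.336 and 0.106 FPKM in hydrogel (19, 20 and 6 fragments), 0.190, 0.504 and 0.224 FPKM in PCL (12, 33 and 14 fragments) and 0.499, 0.212 and 0.256 FPKM in β-TCP (32, 13 and 16 fragments), against 0.538, 0.454 and 0.634 FPKM in control (31, 26 and 39 fragments). The hydrogel libraries were below the control libraries, and the other groups overlapped them. The difference in mean log2(FPKM + 1) was −0.31 in hydrogel (two-sided exact permutation p = 0.1, the smallest that 3 against 3 libraries allow), −0.25 in PCL (exact p = 0.2) and −0.23 in β-TCP (exact p = 0.2). Over the 9 scaffold libraries together it was −0.26, with an exact permutation p of 0.0364 that became 0.255 after Benjamini-Hochberg adjustment over the 7 comparisons of this gene. The gene identifier of this entry is not that of Dkk1 in RefSeq GRCr8, so its fragments may be shared with another copy of the gene.

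Wif1, the most abundant of the 9, is known from bone-forming cells and the cartilage border. It had 38.5, 34.5 and 21.9 FPKM in hydrogel, 23.2, 30.4 and 19.7 FPKM in PCL and 28.6, 19.9 and 19.8 FPKM in β-TCP, against 35.9, 43.1 and 35.9 FPKM in control. The PCL and β-TCP libraries were all below the control libraries, and those of hydrogel overlapped them. How many of all genes separate in this way was not counted. The log2 difference was −0.64 in PCL (SE 0.23, adjusted p = 0.209 by limma) and −0.74 in β-TCP (SE 0.23, adjusted p = 0.0991 by limma), both under 2-fold and so not called. In hydrogel it was −0.30 (95% interval −0.81 to 0.21, adjusted p = 0.399 by limma). Without control replicate 3 the values in PCL and β-TCP were −0.69 and −0.79.

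**Figure D3:**
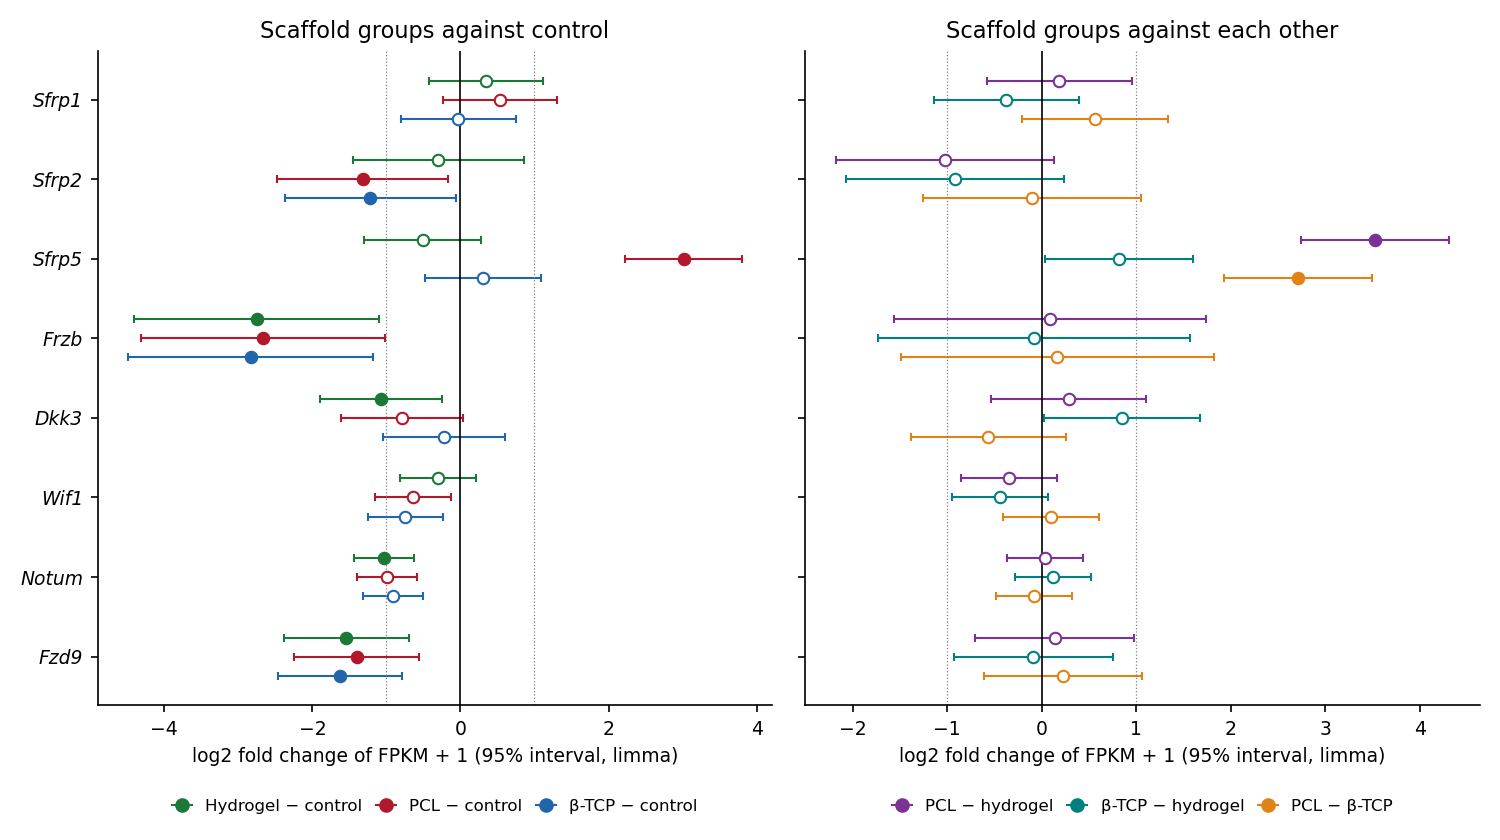
Fitted log2 fold changes of FPKM + 1 with 95% intervals from limma for the 8 genes tested, for each scaffold group minus control (left) and between scaffold groups (right); filled points are called and dotted lines mark 2-fold. Sfrp5 in PCL stands at 3.01 against control, 3.52 against hydrogel and 2.71 against β-TCP, while Frzb and Fzd9 are called lower in all 3 comparisons with control and in none between scaffold groups.

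With the 3 scaffold groups averaged and set against control, 2 of the 8 genes were called lower, Frzb (−2.75, SE 0.61, adjusted p = 0.0799 by limma) and Fzd9 (−1.52, SE 0.31, adjusted p = 0.0608 by limma), where 1.04% of all genes were called lower. The smallest p was that of Notum (−0.98, SE 0.15, adjusted p = 0.0514 by limma), which fell short of 2-fold on this scale. None was called higher, where 0.768% of all genes were, and the change of Sfrp5 averaged over the 3 scaffold groups was under 2-fold (0.93, adjusted p = 0.161 by limma). The call of Fzd9 ended without control replicate 3 (−0.95, adjusted p = 0.0410 by limma), again by its fold. None passed an adjusted p under 0.05 in limma (0.0396% of all genes did).

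Of 55 tested genes in 7 other lists of the Wnt pathway, 0 were called higher and 2 lower in hydrogel, 0 higher and 1 lower in PCL and 1 higher and 0 lower in β-TCP. With so few genes these counts are near the shares of all genes, of which 0.807% were called higher and 1.48% lower in hydrogel, 2.37% and 1.27% in PCL and 2.49% and 1.03% in β-TCP. At an adjusted p under 0.05 limma called 0, 0 and 3 of the 55, where 0.00792%, 0.277% and 4.78% of all genes passed. With so few genes these counts too are near the shares of all genes. Trabd2b, a membrane protease that cleaves Wnt proteins, and the ligands Wnt4 and Wnt10b were lower in all 9 scaffold libraries than in all 3 control libraries (5.45% of the 55, beside 1.52% of all genes), as Frzb, Fzd9 and Notum were. Trabd2b lay at 0.349 to 0.995 FPKM in the scaffold libraries, against 1.27 to 2.70 FPKM in control, and passed the filter through the control libraries alone. Its place in the 5.45% was thus set by the group in which it was high, so these shares are no test. Wnt4 lay at 0.448 to 1.41 FPKM, against 1.73 to 4.46 FPKM in control, and Wnt10b at 1.02 to 2.11 FPKM, against 2.15 to 4.73 FPKM in control. None of the 3 was called, since each change was under 2-fold on the log2(FPKM + 1) scale. Of the 83 genes in these lists, those beyond the 55 were too low to be tested. Among them 2, Wnt9b and Wnt11, showed the same order, at 0 to 0.0639 FPKM and 0 to 0.274 FPKM in the scaffold libraries. The share of all untested genes in this order was not counted, so this is no result about these ligands.

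Of 14 other antagonists 8 were tested, and none was called against control in any scaffold group, with medians of −0.36 in hydrogel, −0.09 in PCL and 0.14 in β-TCP. With so few genes, none called is near the shares of all genes given above. Sfrp4, the remaining secreted Frizzled-related protein, had 39.4, 29.9 and 28.3 FPKM in β-TCP, against 19.9, 21.5 and 18.2 FPKM in control. It was higher there by 0.67 (SE 0.17, adjusted p = 0.0486 by limma), under 2-fold. Sost, the osteocyte antagonist sclerostin, averaged 18.8 FPKM in hydrogel, 24.01 FPKM in PCL and 18.4 FPKM in β-TCP, against 24.8 FPKM in control, with overlap. Kremen1, a receptor for Dickkopf proteins, was lower in PCL than in β-TCP by 1.004 on the log2 scale (SE 0.26, adjusted p = 0.0995 by limma).

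Of 19 Wnt ligands 5 passed the filter on low values. Wnt5b, a ligand of prehypertrophic cartilage, was called lower in hydrogel, with 5.58, 5.95 and 3.28 FPKM there against 6.96, 8.27 and 21.9 FPKM in control (−1.04, SE 0.35, adjusted p = 0.312 by limma). Wnt5a, the ligand that Sfrp5 opposes in fat tissue, had 4.76, 5.88 and 6.88 FPKM in β-TCP and 2.38, 2.74 and 1.19 FPKM in hydrogel. It was higher in β-TCP than in hydrogel by 1.16 (SE 0.26, adjusted p = 0.0328 by limma) and was called in no comparison with control. In PCL, where Sfrp5 was high, Wnt5a had 2.64, 2.90 and 1.84 FPKM, against 3.40, 3.13 and 6.33 FPKM in control (−0.58, adjusted p = 0.276 by limma).

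None of the 13 receptor and co-receptor genes tested besides Fzd9, of the 3 tested genes for R-spondins and their receptors, or of the 12 tested genes of the β-catenin core was called in a comparison with control, at either threshold. With so few genes, none called is near the shares of all genes. Those were 0.807% higher and 1.48% lower in hydrogel, 2.37% and 1.27% in PCL, and 2.49% and 1.03% in β-TCP. At the adjusted threshold they were 0.00792%, 0.277% and 4.78%. Unadjusted limma p under 0.05 without a 2-fold change was found for 4, 3 and 0 of the receptor genes in hydrogel, PCL and β-TCP. The share of all genes with such a p was not counted, but it was not small. Sfrp2, with an unadjusted limma p of 0.0287 in PCL and 0.0408 in β-TCP, ranked only 1532 and 2077 by p among all genes tested. The counts of receptor genes are therefore no result about receptors. Ctnnb1, which encodes β-catenin, averaged 84.2 FPKM in hydrogel, 90.7 FPKM in PCL and 105 FPKM in β-TCP, against 103 FPKM in control. Porcn, the enzyme that adds the lipid which Notum removes, had 16.9, 17.7 and 18.3 FPKM in β-TCP, against 8.39, 7.14 and 11.4 FPKM in control (0.93, SE 0.22, adjusted p = 0.0418 by limma), under 2-fold. It was higher in β-TCP than in hydrogel by 1.40 (adjusted p = 0.0113 by limma) and lower in PCL than in β-TCP by 1.29 (adjusted p = 0.0386 by limma).

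Of 13 genes known to respond to Wnt signalling, 12 were tested, with medians of −0.30 in hydrogel, −0.22 in PCL and 0.04 in β-TCP. Tnfrsf11b, the osteoclast inhibitor osteoprotegerin, was called lower in hydrogel (−1.20, SE 0.32, adjusted p = 0.312 by limma) and PCL (−1.01, SE 0.32, adjusted p = 0.181 by limma). It had 3.46, 5.54 and 3.06 FPKM in hydrogel and 5.52, 5.07 and 3.42 FPKM in PCL, against 6.68, 8.49 and 18.7 FPKM in control. Cd44, a cell adhesion receptor abundant on myeloid cells, was higher in β-TCP, with 113, 122 and 124 FPKM there against 58.7, 46.9 and 59.0 FPKM in control (1.12, SE 0.18, adjusted p = 0.0141 by limma). Axin2, a feedback inhibitor that is the usual readout of the pathway, had 2.76, 2.71 and 2.83 FPKM in hydrogel, 2.32, 1.53 and 1.54 FPKM in PCL and 2.00, 1.86 and 1.76 FPKM in β-TCP, against 3.02, 3.00 and 2.42 FPKM in control. Its log2 difference was −0.45 in PCL (SE 0.13, adjusted p = 0.159 by limma) and −0.41 in β-TCP (SE 0.13, adjusted p = 0.112 by limma), under 2-fold in both. Nkd1, another feedback inhibitor, differed from control by −0.66 in hydrogel, −0.56 in PCL and −0.52 in β-TCP (adjusted p = 0.312, adjusted p = 0.167 and adjusted p = 0.112 by limma), and was likewise not called.

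**Figure D4:**
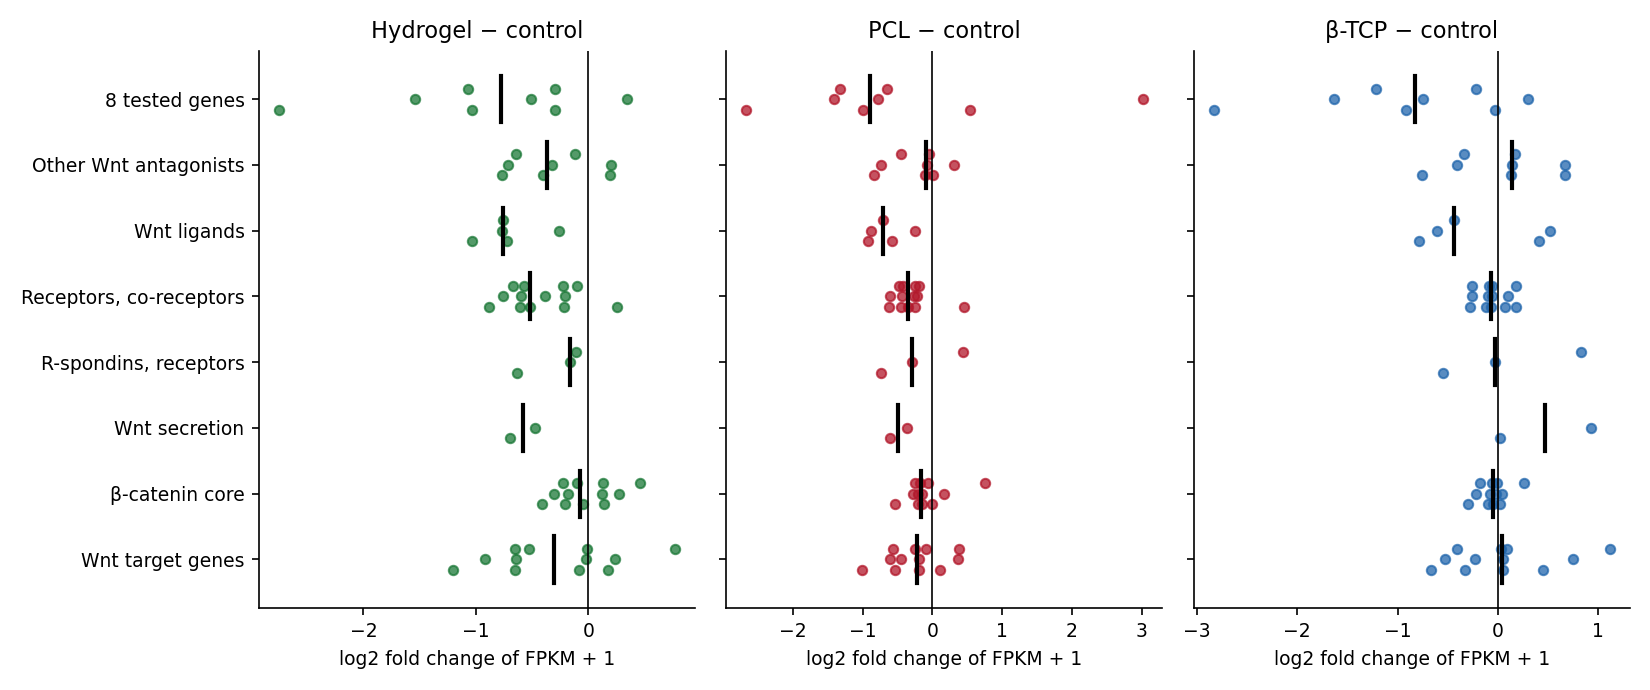
Fitted log2 fold changes of FPKM + 1 against control for the 8 tested genes of the 9 described and for 7 other lists of the Wnt pathway, with 1 point per gene tested and a black bar at the list median, in hydrogel, PCL and β-TCP. The genes described hold the points farthest from 0 in each panel (Frzb at −2.75, −2.67 and −2.83, Sfrp5 at 3.01 in PCL), and the other lists lie mostly within 1 of 0. The genes described were chosen with earlier results of these data known, so this contrast is no test.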

How the data were processed

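RNA of 12 libraries, 3 each of hydrogel, PCL, β-TCP and control, was compared by the group in the sample labels. The authors trimmed reads with Trimmomatic, mapped them with hisat2 and deposited FPKM per gene from cufflinks. Further names in the submitters' processing notes are StringTie, HTSeq, Bowtie and DESeq, with the build Rnor_6.0 and no versions. The labels describe mirVana extraction and a stranded TruSeq kit, the study's methods Trizol and a VAHTS kit, and which applies is not settled, so reads of overlapping antisense genes may be shared. In the deposited table, 3 further columns match no sample label and were not used.

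The test was run on the 12633 genes that reached 1 FPKM in 3 or more libraries. It used limma 3.58.1 (R 4.3.3) with log2(FPKM + 1), a pseudocount of 1, group means from all libraries fitted together, a mean-variance trend, and p-values that were two-sided and adjusted by Benjamini-Hochberg across those genes. Dkk1 failed this filter and was tested by exact permutation. Fragments were recovered from FPKM steps, which was tested on simulated data. Members of the gene lists were counted, of 204 listed genes 202 matching the table. Motifs and ratios were computed in Python 3.11.15. The 9 genes and the lists were chosen with earlier results of these data known. Named from each other Wnt list are up to 4 called genes, or the abundant ones where none was called; genes chosen after their values were seen are Sfrp4, Kremen1, Trabd2b, Wnt4, Wnt5a, Wnt9b, Wnt10b, Wnt11, Porcn, Axin2 and Nkd1. Alternatives were other pseudocounts (0.1 and 0.5), filters and scalings, limma-voom on fragments, library weights, a replicate block and each library left out.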

Additional observations from a re-analysis of the deposited data

Results flagged for a closer look

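The effect on Sfrp5 differed between the scaffold groups by a test of the difference itself, which is the same comparison of groups given above. With the same control libraries as baseline, the change in PCL exceeded that in hydrogel by 3.52 on the log2(FPKM + 1) scale (limma, SE 0.35, adjusted p = 0.00718) and that in β-TCP by 2.71 (limma, SE 0.35, adjusted p = 0.0159). Sfrp5 was higher in 3 of 3 PCL libraries than in every hydrogel and β-TCP library, a separation whose share over all genes was not counted. The adjusted call was lost under 3 of the alternatives against hydrogel (limma adjusted p up to 0.0927). Against β-TCP it was lost under 4 (limma adjusted p up to 0.0972).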

How the results depend on the processing

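Under 24 alternatives, the 27 single-gene results gave 623 values, since some genes failed the filter under some of them. These results were the pairs of gene and comparison with an unadjusted limma p under 0.05 or a fitted fold change over 2 or under 0.5. None changed direction, which that choice and the reuse of the same libraries favored, so it is no test. Of the values, 564 stayed on their side of the threshold, 20 lost it and 39 passed it where they had not. The called members of hydrogel against control were 4, and 2 with a mean of at least 5 FPKM required, 1 with weights per library. For PCL against control they were 4, and 2 under each of these settings. For PCL against hydrogel and for PCL against β-TCP they were 1, and 0 with the stricter filter, 2 with weights. For β-TCP against hydrogel they were 0, and 1 with a pseudocount of 0.1, of 0.5 or with weights. For the scaffolds together they were 2, and 4 with either pseudocount, median-of-ratios scaling, quantile normalization or limma-voom, and 1 with the stricter filter, which tests neither Notum, Fzd9 nor Sfrp5. The weights ran from 0.0439 for control replicate 3 to 40.6 for control replicate 1, and their estimation did not converge.

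With 1 library left out, the called members ranged over 1 to 4 in hydrogel, 2 to 4 in PCL and 2 to 3 in β-TCP against control, 1 to 2 in PCL against hydrogel, 0 to 1 in β-TCP against hydrogel, 1 in PCL against β-TCP and 1 to 4 for the scaffolds together. The lowest counts in hydrogel (1), PCL (2) and the scaffolds (1) came without control replicate 3, without which Notum could not be tested. The scaffolds gave 4 without control replicate 2 or without β-TCP replicate 1.

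A replicate block left the called members at 4 (hydrogel), 4 (PCL) and 3 (β-TCP) and at 2 for the scaffolds. The numbers did not pair the libraries (r of -0.61 to 0.47 over 18 same-numbered pairs, 4 of them over 0.1). Scaling moved the median of all genes in hydrogel against control, which was 0.14 as deposited and 0.02 after median-of-ratios scaling. With β-TCP replicates 2 and 3 averaged, the adjusted p in β-TCP was 0.123 for Notum and 0.165 for Fzd9, and that of Sfrp5 in PCL against β-TCP was 0.0958. Sfrp5 in PCL against control had an adjusted p of 0.136 when only the groups compared were fitted and of 0.0672 with limma-voom, and against hydrogel of 0.0927 with limma-voom. The causes were not tested. Low counts limit Dkk1 (6 to 39 fragments) and Notum in the scaffold groups (13 to 47 fragments).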
